A study of Mus musculus with 15 samples.

Results

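AzaC (5-azacytidine), a cytidine analogue that inhibits DNA methylation, was compared with PBS in mammary epithelial cells of C57BL/6 female mice labelled virgin at 9 weeks. The comparison covers the 3 arrays of AzaC-injected and the 2 arrays of PBS-injected virgin mice, 5 of 15 arrays in all, and 12393 genes. Each gene was read by 1 probe set, the one with the highest mean over the 15 arrays among probe sets with a single gene symbol. All mice were injected intraperitoneally, the glands were digested to purify mammary epithelial cells, and mRNA was converted to biotinylated cRNA for single-colour Affymetrix arrays. The other arrays used beside them were from mice labelled virgin and injected with VPA (valproic acid, a histone deacetylase inhibitor; 2 arrays), and from mice labelled pregnant at day 21 and injected with PBS (2 arrays), AzaC (3 arrays) or VPA (3 arrays). Dose, number of injections and time of collection after injection are not given in the sources used here, and nothing in the labels ties the replicates to different animals. Each p-value therefore rests on the variation among these preparations, which may be technical.

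5-azacytidine is taken up by nucleoside transporters, phosphorylated by nucleoside and nucleotide kinases, and incorporated into RNA and, after reduction to the deoxyribonucleotide, into DNA, where it traps DNA methyltransferases. Genes known to be held silent by methylation of CG-rich promoters, such as germline genes, are the usual readouts of that action, and because the trapping needs DNA synthesis, dividing cells are most exposed. Mammary epithelium consists of an outer basal layer of contractile myoepithelial cells and an inner luminal layer, which holds hormone-sensing cells and the progenitors of the cells that make milk. Values below are processed signals on a log2 scale as deposited, and a difference is the mean of the AzaC arrays minus the mean of the PBS arrays on that scale.

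The virgin label was set against the genes that define secretory cells. Csn2 (beta-casein) read 13.69 and 13.80 with PBS and 13.80, 13.94 and 13.92 with AzaC. Wap (whey acidic protein) read 13.66 and 13.69 with PBS and 13.76, 13.89 and 14.06 with AzaC. These levels lie near the highest value of any gene on these arrays (14.30 to 14.39). Abundant milk transcripts mark secretory glands, so these genes go against the label, and the arrays are called virgin-labelled throughout. The epithelial label held: the luminal keratin Krt8 read 11.10 to 12.58 and the basal keratin Krt14 read 9.68 to 10.63 on these 5 arrays. The preparations were not epithelium alone, because each of 18 skeletal muscle genes read 6 or more on every one of the 5 arrays, with array medians of 11.75 and 11.12 with PBS and 9.85, 11.12 and 12.18 with AzaC.

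The arrays of each group differed among themselves before any comparison. PBS replicate 2 had the largest gap between the 3′ and the 5′ control probe sets of Gapdh, 1.23 against -0.06 to 0.14 on the other 4 arrays, and likewise of Actb, 1.44 against 0.18 to 0.48. Such a gap is the usual sign of shortened RNA or cDNA, and its part in the differences below was not tested. PBS replicate 1 carried transcripts of salivary secretory genes, with a median of 12.76 over 6 genes, against 7.76 on PBS replicate 2 and 6.08, 6.49 and 5.26 with AzaC. AzaC replicate 1 lay at -34.02 on the first principal component (52.1% of the variance, 8826 genes averaging at least 6), far from replicates 2 and 3 at 2.43 and 8.99. PBS replicate 2 lay beside it at -34.50, and PBS replicate 1 lay between at -12.53. Across the same genes, which are not independent replicates, PBS replicate 1 correlated with AzaC replicate 2 at 0.967 and with PBS replicate 2 at 0.926. The standard deviation over genes of the difference between the PBS arrays was 0.633, larger than that of the difference between the group means, 0.342. Results are therefore given with and without single arrays where that changes them.

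**Figure D1:**
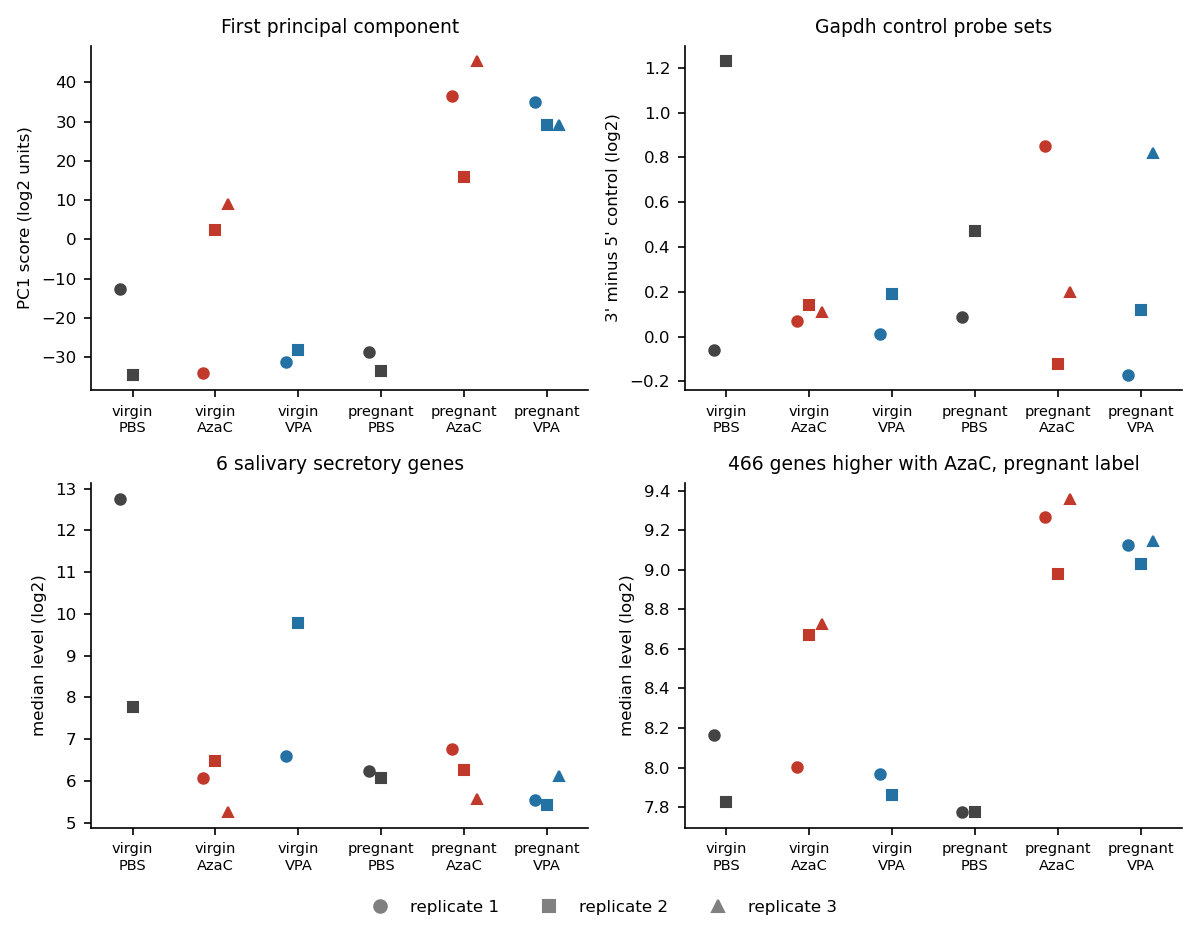
Each point is an array, by group on the x axis, with replicate numbers as symbols; the y axes give the first principal component score, the difference between 3′ and 5′ Gapdh control probe sets (log2), the median log2 level of 6 salivary genes and the median log2 level of 466 genes that were higher with AzaC under the pregnant label. Among the 5 virgin-labelled PBS and AzaC arrays, PBS replicate 2 has the highest Gapdh difference (1.23), PBS replicate 1 the highest salivary median (12.76), and AzaC replicates 2 and 3 lie above the other 3 in the last panel.

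No gene passed an adjusted p of 0.05 with limma (0 of 12393, percent called 0), and 849 genes (6.85%) had an unadjusted p under 0.05, of which 528 (4.26%) were higher and 321 (2.59%) lower with AzaC. All 3 AzaC arrays lay above both PBS arrays for 1423 genes (11.5%) and below both for 843 (6.80%); such genes are called non-overlapping below. Of the non-overlapping genes 62.8% were thus higher, but after quantile normalization the counts were 975 and 1049, or 48.2% higher, so the split between directions depends on the scaling. The median difference over all genes was 0.06, and -0.03 after quantile normalization. The smallest p that an exact permutation of 3 against 2 arrays can give is above 0.05, since there are 10 orders. On simulated data with these group sizes, limma recovered 40 of 100 genes changed by 1 and 87 of 100 changed by 2 on the log2 scale.

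Calls appeared when single arrays were left out. Without PBS replicate 1, 33 genes passed, of which 29 had a mean under 6 over the 15 arrays. In several of them PBS replicate 2 was far from the other 4 arrays. Clca1, a secreted regulator of chloride channels, read 3.87 and 0.38 with PBS and 4.47, 4.79 and 4.85 with AzaC. Without PBS replicate 2, 5 genes passed, all lower with AzaC. They were Chia1, Cst10, Prcp, Prpmp5 and 2310057J18Rik, each of which had its highest value on PBS replicate 1. Without AzaC replicate 2, 1 gene passed: Pbld2, which read 0.65 and 0 with PBS and 4.29, 2.66 and 4.08 with AzaC. With values under 5 set to 5, 4 genes passed: Tlcd4 was higher, at 8.44 and 8.40 with PBS and 9.16, 9.07 and 9.35 with AzaC (difference 0.77, adjusted p = 0.0457), and Cdh10, Cxcl15 and Actl7a were lower. All 5 values of Tlcd4 lie above the floor.

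Among genes with a mean of at least 6, the 12 largest non-overlapping differences in each direction at an unadjusted p under 0.05 had clock genes on both sides. Higher with AzaC were the clock activators Npas2 and Arntl, the cytokine feedback genes Zc3h12a and Socs3, the gap junction genes Gjb6 and Gjb2, and Ptk7 (a Wnt-pathway pseudokinase), Tgif1 (a repressor of TGF-beta signalling), Card14 (an NF-kB scaffold), Ildr1 (a tight junction protein), Abcc10 (a drug efflux transporter) and Gnb5 (a G protein subunit). Lower were the clock-output gene Dbp and the clock repressors Per2 and Per3, 5 salivary genes (Bpifa2, Dnase1, Amy1, Cst10 and Chia1), Car6 (a secreted carbonic anhydrase), the matrix gene Olfml2b, the spindle gene Dlgap5 and the helicase gene Blm. Their adjusted p in the limma fit lay between 0.172 (Arntl) and 0.714, so none passed.

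**Figure D2:**
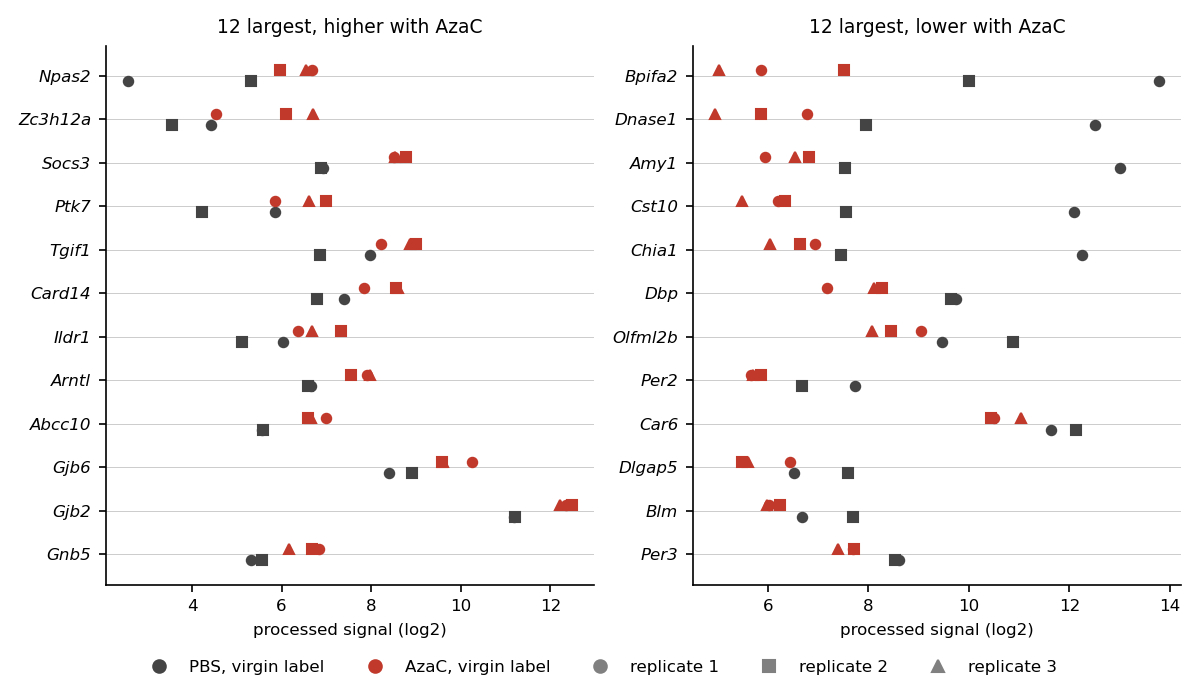
The x axis is the processed signal (log2) and each row is a gene, ordered by the size of its difference, with PBS arrays in grey and AzaC arrays in red and replicates as symbols. PBS and AzaC points do not overlap by the choice of genes; within the salivary genes of the right panel PBS replicate 1 lies far to the right of PBS replicate 2 (13.01 against 7.54 for Amy1), whereas Arntl, Socs3, Gjb2, Dbp and Per3 have both PBS arrays close together.

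The circadian clock is a transcription loop in which Arntl (also called Bmal1) pairs with Clock or its paralogue Npas2 and binds CACGTG elements in the genes of its repressors, the Per and Cry genes. The output factors Dbp, Tef and Hlf bind a second element of the type TTATGTAA, to which the repressor Nfil3 also binds. Arntl and Dbp levels peak at opposite times of day in most tissues, and mammary epithelium has such a clock. Of 20 measured clock genes, 4 lay above and 5 below without overlap, or 20% and 25% against 11.5% and 6.80% of all genes.

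The windows of 2 of the repressors are shown, Per1 for CACGTG and Per3 for the second element. They run from 250 bases before to 50 bases after the RefSeq start (GRCm38.p6), 5′ to 3′, with CACGTG in capitals for Per1 (chr11:69098699-69098998, plus strand) and TTATGTAA in capitals for Per3 (chr4:151044616-151044915, minus strand).
Per1: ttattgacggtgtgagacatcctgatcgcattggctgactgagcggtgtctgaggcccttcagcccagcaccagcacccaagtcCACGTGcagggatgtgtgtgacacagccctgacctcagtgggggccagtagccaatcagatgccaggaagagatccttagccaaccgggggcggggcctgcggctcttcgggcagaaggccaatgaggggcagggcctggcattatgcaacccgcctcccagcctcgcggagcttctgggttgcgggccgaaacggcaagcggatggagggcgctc
Per3: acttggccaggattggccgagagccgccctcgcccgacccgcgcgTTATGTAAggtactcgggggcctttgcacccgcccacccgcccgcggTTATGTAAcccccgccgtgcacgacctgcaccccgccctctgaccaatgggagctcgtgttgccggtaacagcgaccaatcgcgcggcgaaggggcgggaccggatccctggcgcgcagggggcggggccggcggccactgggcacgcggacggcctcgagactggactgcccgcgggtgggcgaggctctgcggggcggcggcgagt
The CACGTG of Per1 begins 166 bases before the start and the Per3 elements 205 and 158 bases before it. The Per1 window also holds TTATGCAA, left in small letters, and the Per3 window holds no CACGTG. Windows were found for 17 of the 20 clock genes. On either strand, CACGTG was in 23.5% of them against 10.8% of the windows of all 9887 matched genes, and TTATGTAA or TTATGCAA in 17.6% against 1.64%; a gene with several starts counts if any window holds the letters. A match describes the letters and no binding was measured.

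The activators read lower with PBS than with AzaC. Arntl read 6.66 and 6.58 with PBS and 7.91, 7.55 and 7.98 with AzaC, a difference of 1.19 ± 0.19 (SE; adjusted p = 0.172, limma). Npas2 read 2.57 and 5.32 with PBS and 6.67, 5.97 and 6.55 with AzaC, with PBS replicate 1 far below PBS replicate 2. The partner gene Clock differed by less, at 7.99 and 7.90 with PBS and 8.36, 8.59 and 8.32 with AzaC. Rora, a nuclear receptor that drives Arntl, read 10.88 and 11.02 with PBS and 11.38, 11.12 and 11.40 with AzaC.

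Some of the outputs and repressors lay the other way. Dbp, an output factor, read 9.74 and 9.64 with PBS and 7.18, 8.27 and 8.12 with AzaC, a difference of -1.83 ± 0.70 (SE; adjusted p = 0.714, limma). Per3 read 8.62 and 8.54 with PBS and 7.69, 7.71 and 7.39 with AzaC. Per2 read 7.74 and 6.68 with PBS and 5.67, 5.86 and 5.71 with AzaC, with PBS replicate 1 well above PBS replicate 2. The 2 remaining genes below PBS without overlap had narrow gaps: Per1 read 9.92 and 9.83 with PBS and 9.78, 8.91 and 9.64 with AzaC, and Tef read 10.62 and 10.20 with PBS and 10.11, 10.04 and 9.90 with AzaC. The output gene Hlf overlapped between the groups, at 10.88 and 11.67 with PBS and 11.19, 11.06 and 11.26 with AzaC. So did Nfil3, the core repressor genes Cry1 and Cry2, and the nuclear receptor genes Nr1d1 and Nr1d2.

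In 3 of these genes both PBS arrays lay outside the range of the rest of the series. The other 13 arrays, of all drugs and both stage labels, read 7.52 to 8.0 for Arntl and 5.82 to 7.90 for Npas2, above both virgin-labelled PBS arrays, and 8.33 to 9.78 for Per1, below both. For others of these genes the ranges met. For Dbp the other 13 arrays had a median of 7.77 and reached 9.71, above PBS replicate 2, and they reached 7.23 for Per2 and 10.45 for Tef, each above PBS replicate 2. For Per3 they reached 8.80, above both PBS arrays, and for Clock and Rora they went down to 7.57 and 10.25, below both. The virgin-labelled VPA arrays, compared with the same PBS arrays, read 8.0 and 7.52 for Arntl and 6.79 and 7.99 for Dbp. Under the pregnant label Arntl read 7.89 and 7.87 with PBS and 7.52, 7.76 and 7.61 with AzaC. The time of day at collection is not given in the labels and its part in these values was not tested.

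**Figure D3:**
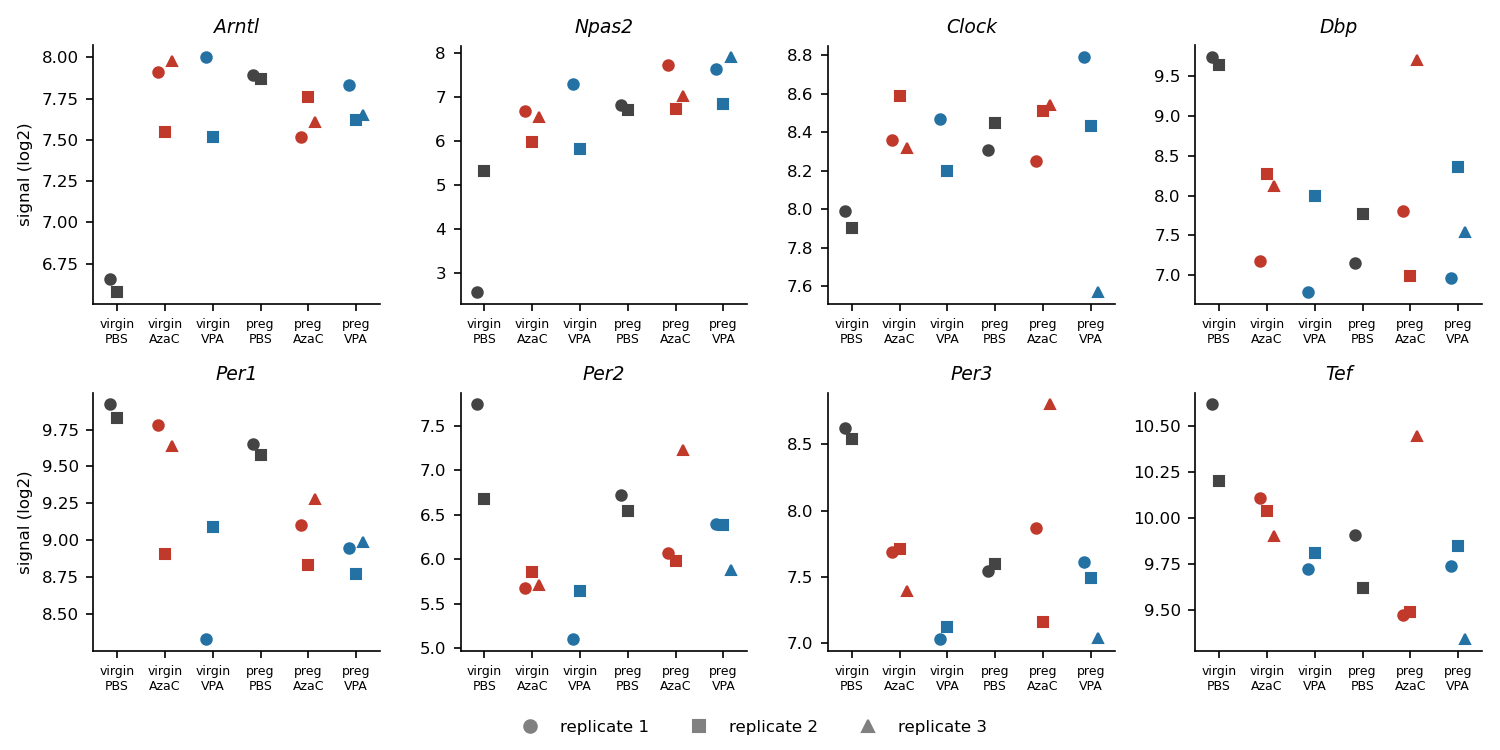
Each panel is a clock gene, with the processed signal (log2) on the y axis and the 6 groups on the x axis; points are arrays and symbols replicate numbers. The virgin-labelled PBS arrays are lowest of all 15 for Arntl (6.58 and 6.66) and Npas2, and highest for Per1 (9.83 and 9.92). For Arntl the AzaC and VPA arrays of the same label (7.52 to 8.0) lie with the pregnant-labelled ones (7.52 to 7.89). For Npas2 the AzaC arrays of that label (5.97 to 6.67) lie below the pregnant-labelled ones (6.70 to 7.90). For Per1 AzaC replicate 1 of that label (9.78) lies above the pregnant-labelled ones (8.77 to 9.65), next to PBS.

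Socs3, a gene of cytokine feedback, read higher on all 3 AzaC arrays than on both PBS arrays. It is induced by STAT3 and feeds back to shut off the cytokine receptor. It read 6.93 and 6.88 with PBS and 8.52, 8.78 and 8.54 with AzaC (difference 1.71 ± 0.29 SE, adjusted p = 0.221, limma), with both groups tight and far apart. Its proximal window (chr11:117969317-117969616, minus strand, GRCm38.p6) is shown with its STAT-type motif TTCNNNGAA in capitals, which begins 154 bases before the start.
Socs3: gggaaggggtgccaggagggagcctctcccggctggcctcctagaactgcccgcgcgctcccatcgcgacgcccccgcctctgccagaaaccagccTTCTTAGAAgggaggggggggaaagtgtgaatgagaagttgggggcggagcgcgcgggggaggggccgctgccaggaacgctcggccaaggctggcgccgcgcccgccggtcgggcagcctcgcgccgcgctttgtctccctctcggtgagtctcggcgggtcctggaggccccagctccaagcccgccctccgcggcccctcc
The motif, searched on both strands, was in 8.45% of the windows of all matched genes. The related Socs1 read 4.36 and 4.10 with PBS and 4.99, 4.67 and 5.07 with AzaC. Socs7 lay the other way, at 5.55 and 6.16 with PBS and 4.90, 4.41 and 5.32 with AzaC. Of 36 measured genes of JAK-STAT signalling, 4 lay above and 2 below without overlap (11.1% and 5.56%, near the 11.5% and 6.80% of all genes), and the median difference was 0.22 against 0.06 for all genes. Leaving out PBS replicate 2 brought that median to 0.06.

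Of 41 immediate early and dissociation-response genes, which respond within minutes to growth factors, stress or tissue handling, 9 lay above and 0 below without overlap (22.0% against 11.5% of all genes), with a median of 0.46. Ier5 read 8.15 and 8.91 with PBS and 9.37, 9.59 and 9.77 with AzaC. Ier3, an inhibitor of cell death, read 8.56 and 8.70 with PBS and 9.30, 10.05 and 9.79 with AzaC. Ppp1r15a, which reverses the translation block of the stress response, read 7.68 and 6.85 with PBS and 7.88, 8.31 and 8.07 with AzaC, with AzaC replicate 1 near PBS replicate 1. The RNase gene Zc3h12a read 4.43 and 3.56 with PBS and 4.53, 6.09 and 6.70 with AzaC, so AzaC replicate 1 lay next to PBS. The list median was 0.28 without PBS replicate 2, 0.66 without AzaC replicate 1 and 0.14 without AzaC replicate 3. Handling of the glands and the injection cannot be told apart here.

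Cell cycle genes were lower with AzaC as a group. Of 69 measured cell cycle and replication genes, 64 had a difference below 0, 25 lay below PBS without overlap and 0 above (36.2% against 6.80% of all genes), and the median difference was -0.54. Fewer dividing cells and less RNA of these genes per cell cannot be told apart in such preparations. Orc1, a subunit of the origin recognition complex, read 7.29 and 7.57 with PBS and 6.94, 6.72 and 6.74 with AzaC (adjusted p = 0.709, limma). The mitotic kinase gene Nek2 read 8.20 and 8.01 with PBS and 7.55, 7.24 and 7.15 with AzaC. Cyclin gene Ccne2, of the start of S phase, read 5.98 and 7.52 with PBS and 5.58, 5.69 and 5.58 with AzaC, and the ribonucleotide reductase gene Rrm1 read 8.91 and 10.13 with PBS and 8.63, 8.71 and 8.35 with AzaC.

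The size of this group difference was set by particular arrays. PBS replicate 2 was the highest array for many members: the proliferation marker Mki67 read 10.72 and 11.81 with PBS and 11.26, 9.72 and 9.74 with AzaC, with AzaC replicate 1 inside the PBS range. The mitotic kinase gene Plk1 read 8.44 and 8.40 with PBS and 8.31, 7.25 and 7.37 with AzaC, where replicate 1 lay near PBS and replicates 2 and 3 well below. The array medians of the 69 genes were 8.17 and 8.32 with PBS and 8.07, 7.5 and 7.43 with AzaC. The median difference was -0.76 without PBS replicate 1, -0.30 without PBS replicate 2, -0.67 without AzaC replicate 1 and -0.62 after quantile normalization. In the promoter windows of 58 of these genes, the elements of cell cycle promoters CCAAT and TTTGAA were in 72.4% and 39.7%, against 42.3% and 15.4% of all matched genes (either strand).

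**Figure D4:**
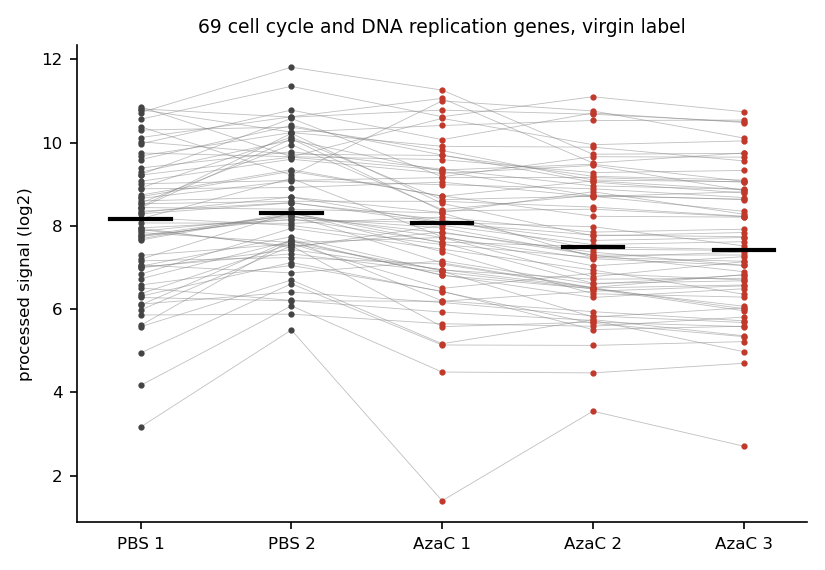
Each point is 1 of 69 cell cycle and DNA replication genes on 1 of the 5 virgin-labelled PBS and AzaC arrays (x axis), at its processed signal (log2, y axis); thin lines join a gene's values and thick bars are array medians. The bars of AzaC replicates 2 and 3 (7.5 and 7.43) lie lower than those of the other 3 arrays (8.07 to 8.32).

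The enzymes that AzaC acts on and through were next compared. The maintenance methyltransferase gene Dnmt1 read 10.05 and 10.49 with PBS and 9.92, 10.26 and 10.28 with AzaC, overlapping. The de novo enzyme genes Dnmt3a and Dnmt3b differed by -0.06 and 0.19, and Dnmt3b was non-overlapping at 6.77 and 6.82 with PBS and 6.93, 7.02 and 7.01 with AzaC. Uhrf1, which brings Dnmt1 to replicated DNA, read 8.43 and 10.09 with PBS and 8.36, 8.40 and 8.22 with AzaC, so AzaC replicate 2 and PBS replicate 1 nearly met. Mat2b, the regulatory subunit of the enzyme that makes the methyl donor, read 9.53 and 8.87 with PBS and 9.95, 10.33 and 10.32 with AzaC, and the methyl-CG reader Mbd2 read 8.83 and 8.81 with PBS and 8.93, 9.42 and 9.45 with AzaC. Of 26 measured genes of DNA methylation, 5 lay above and 1 below without overlap (19.2% and 3.85%, against 11.5% and 6.80% of all genes), with a median of 0.18.

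Genes that handle cytidine analogues lay on both sides, in shares near those of all genes. Cmpk1, the pyrimidine nucleoside monophosphate kinase that phosphorylates the drug's monophosphate, read 10.20 and 10.02 with PBS and 10.53, 10.98 and 10.87 with AzaC, a difference of 0.68 ± 0.17 (SE; adjusted p = 0.53, limma). The mitochondrial kinase gene Cmpk2 read 9.72 and 9.70 with PBS and 10.04, 10.21 and 10.77 with AzaC. In contrast, Umps, which completes the de novo synthesis of uridine monophosphate, read 6.76 and 6.82 with PBS and 6.10, 6.44 and 6.31 with AzaC, and the thymidylate synthase gene Tyms read 6.51 and 6.21 with PBS and 5.93, 5.73 and 4.98 with AzaC. Of 35 such genes 3 lay above and 3 below without overlap (8.57% each, against 11.5% and 6.80% of all genes), with a median of 0.00, and Tyms and Rrm1 are counted in the cell cycle list too. Among the other 13 arrays, the VPA arrays of the same label read 10.71 and 10.77 for Cmpk1 and 10.23 and 10.15 for Cmpk2.

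Germline genes, which are classically silenced by promoter methylation, did not lie higher as a group. Of 31 measured, 0 lay above PBS without overlap and 1 below (0% and 3.23%, against 11.5% and 6.80% of all genes), 25 had a difference below 0, and the median was -0.23. The exception in size was Taf7l, a testis-expressed subunit of a general transcription factor, which read 1.83 and 3.31 with PBS and 0, 0 and 0.46 with AzaC (difference -2.42 ± 0.43 SE, adjusted p = 0.263, limma). Smc1b, a meiotic cohesin gene, was listed at 0 on both PBS arrays and read 3.15, 1.21 and 0 with AzaC. Dazl, a germ cell RNA-binding protein gene, read 3.24 and 1.56 with PBS and 3.42, 2.57 and 2.57 with AzaC, and Tdrd1, of the piRNA pathway, was listed at 0 on all 5. These are dim readings, where small changes of signal are large on this scale. The germline windows had a median of 20 CG over 25 genes, against 19 for all matched genes and 9 for those with a mean under 6. At least 10 CG were in 92% of the germline windows, against 74.2% and 47.5%. CACGTG was in 48% of the germline windows, against 10.8% of all matched genes.

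Among 39 measured imprinted genes and Xist, 8 lay above and 4 below without overlap (20.5% and 10.3%, against 11.5% and 6.80% of all genes). Xist, the RNA that coats the inactive X chromosome, read 12.67 and 12.78 with PBS and 13.29, 12.96 and 13.09 with AzaC, but its difference of 0.39 became -0.01 with the mean of all its probe sets. The growth-restraining Cdkn1c read 7.42 and 7.97 with PBS and 6.97, 7.07 and 7.28 with AzaC, and Usp29 read 5.24 and 5.67 with PBS and 4.66, 5.05 and 4.33 with AzaC. Phlda2, another growth-restraining imprinted gene, lay the other way at 4.13 and 3.35 with PBS and 5.03, 4.42 and 4.52 with AzaC. The direction was thus mixed within this class.

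Interferon-stimulated genes, which demethylated retroelements can induce through double-stranded RNA, had 2 of 41 above and 4 below without overlap (4.88% and 9.76%, against 11.5% and 6.80% of all genes) and a median of -0.04. Ifit3 read 9.14 and 8.88 with PBS and 8.72, 8.66 and 8.52 with AzaC, and Sting1, the adaptor of cytosolic DNA sensing, read 8.72 and 8.74 with PBS and 9.06, 9.26 and 8.96 with AzaC. Of 31 p53 targets and DNA damage genes, 7 lay above and 4 below (22.6% and 12.9%, against 11.5% and 6.80% of all genes). The list was split, with 16 differences above 0, 15 below and a median of 0.03 against 0.06 for all genes. The Fas readings that follow are dim (mean of 3.461 over the 15 arrays). The death receptor gene Fas read 0 and 2.20 with PBS and 3.06, 4.20 and 4.25 with AzaC, the damage-recognition gene Ddb2 read 7.36 and 6.94 with PBS and 7.77, 8.08 and 7.88 with AzaC, and its partner in excision repair, Xpc, read 6.31 and 5.88 with PBS and 6.5, 7.32 and 7.44 with AzaC. Cdkn1a, a standard p53 target, did not share this: it read 7.78 and 7.76 with PBS and 7.68, 7.52 and 7.56 with AzaC. Mdm2, another p53 target, lay above PBS, at 9.53 and 9.60 with PBS and 9.87, 9.86 and 9.92 with AzaC.

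**Figure D5:**
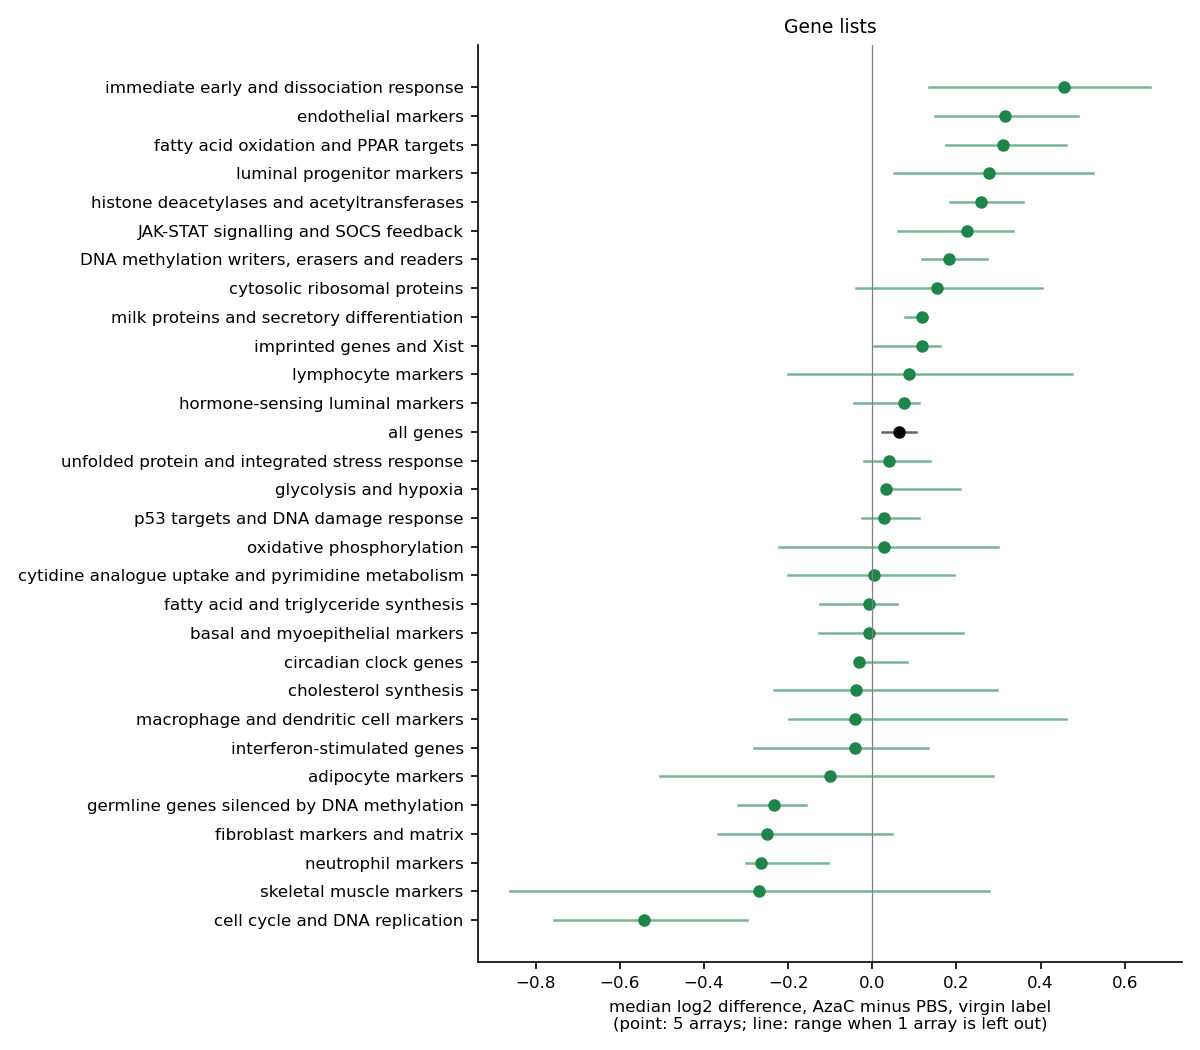
The x axis is the median log2 difference, AzaC minus PBS under the virgin label, over the measured genes of each list (rows); points use the 5 arrays and lines span the values with 1 array left out. The immediate early (0.46) and cell cycle (-0.54) lists lie farthest from the median of all genes (0.06). Lines that cross 0 include those of skeletal muscle, macrophage, adipocyte, lymphocyte, ribosomal and oxidative phosphorylation genes. The lines of fibroblast and unfolded protein genes cross 0 as well.

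Genes of milk secretion lay slightly higher with AzaC. Of 24 genes, 10 lay above and 0 below without overlap (41.7% against 11.5% of all genes), but the median difference was 0.12 and most of these genes read above 13, so close to the upper end of the scale that it may be saturated. Pigr, the receptor that carries antibodies into milk, read 13.31 and 13.12 with PBS and 13.53, 13.59 and 13.71 with AzaC (difference 0.40, adjusted p = 0.714, limma). After quantile normalization 5 of the 24 lay above and 1 below, where 48.2% of the non-overlapping genes among all genes were higher. Elf5, the transcription factor of secretory fate, read 13.40 and 12.87 with PBS and 13.42, 13.45 and 13.47 with AzaC.

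The connexin genes had larger differences. Gjb2, whose product forms gap junctions between mammary secretory cells, read 11.20 and 11.21 with PBS and 12.34, 12.49 and 12.22 with AzaC (difference 1.15 ± 0.23 SE, adjusted p = 0.349, limma). Gjb6, its partner in mixed channels, read 8.39 and 8.92 with PBS and 10.26, 9.59 and 9.61 with AzaC. The virgin-labelled VPA arrays read 12.26 and 11.50 for Gjb2 and 9.72 and 9.17 for Gjb6. The other 13 arrays, these AzaC arrays among them, read 11.27 to 12.49 for Gjb2, again above both virgin-labelled PBS arrays. For Gjb6 they went down to 8.32 and for Socs3 to 6.52, below both. Card14, Abcc10 and Gnb5, of the largest higher genes, also had both PBS arrays below the other 13.

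Luminal progenitor genes split each group of arrays. Kit, a receptor tyrosine kinase of these progenitors, read 9.11 and 6.74 with PBS and 7.26, 10.41 and 9.98 with AzaC: PBS replicate 1 lay with AzaC replicates 2 and 3, and PBS replicate 2 with AzaC replicate 1. Angptl4, a PPAR target that inhibits lipoprotein lipase, read 10.16 and 8.25 with PBS and 9.06, 11.66 and 12.28 with AzaC, with AzaC replicate 1 between the PBS arrays and replicates 2 and 3 above both. Of 18 progenitor genes, 2 lay above and 0 below without overlap (11.1% above, near the 11.5% of all genes), and the median of 0.28 was 0.05 without PBS replicate 2. Of 16 hormone-sensing genes, 0 lay above and 1 below (6.25%, near the 6.80% of all genes): Tnfsf11 (RANKL, the relay of progesterone signalling) read 5.26 and 5.97 with PBS and 4.98, 4.53 and 3.81 with AzaC. Of 25 basal genes, 1 lay above and 3 below (4% and 12%, against 11.5% and 6.80% of all genes), and the actin gene Acta2 differed by 0.00.

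In lipid metabolism, 6 of 31 fatty acid oxidation genes and PPAR targets lay above PBS without overlap and 0 below (19.4% above, against 11.5% of all genes), with a median of 0.31. The enoyl-CoA isomerase gene Eci2 read 9.13 and 8.93 with PBS and 9.21, 9.99 and 10.24 with AzaC, and Hadha, of the mitochondrial trifunctional protein, read 10.64 and 10.19 with PBS and 10.70, 10.91 and 11.19 with AzaC. In both, AzaC replicate 1 lay close to PBS replicate 1. Cholesterol synthesis was mixed, with 4 of 20 above and 1 below (20% and 5%, against 11.5% and 6.80% of all genes): Lss, the cyclase that makes lanosterol, read 9.83 and 10.16 with PBS and 9.66, 9.39 and 9.30 with AzaC, and Ebp read 10.86 and 10.94 with PBS and 11.24, 11.10 and 11.18 with AzaC. Of 25 genes for making fatty acids and triglycerides, 1 lay above and 2 below (4% and 8%).

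Markers of other cell types moved with single arrays. Salivary transcripts gave the largest differences of the whole comparison. Bpifa2 (parotid secretory protein) read 13.79 and 10.01 with PBS and 5.86, 7.51 and 5.03 with AzaC, a difference of -5.77 ± 1.38 (SE; adjusted p = 0.525, limma), and Amy1 (amylase) read 13.01 and 7.54 with PBS and 5.94, 6.82 and 6.55 with AzaC. The summed signal of the 6 genes, as log2, was 15.49 and 11.12 with PBS and 8.11 to 9.13 with AzaC, and none of the 6 was at 0. VPA replicate 2 of the same label carried them too, with a Bpifa2 level of 12.69. This list was drawn up after values were seen.

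Of 27 fibroblast and matrix genes, 7 lay below PBS without overlap and 0 above (25.9% against 6.80% of all genes), with a median of -0.25. Serpinf1, a secreted inhibitor of vessel growth, read 9.13 and 9.03 with PBS and 8.16, 8.53 and 8.71 with AzaC, and the matrix gene Fbln1 read 6.47 and 6.25 with PBS and 5.47, 5.84 and 5.77 with AzaC. The summed fibroblast signal, as log2, was 15.05 and 14.48 with PBS and 14.30 to 14.81 with AzaC, with no member at 0, and without PBS replicate 1 the list median was 0.05. Of 21 endothelial genes 4 lay above and 0 below (19% above, against 11.5% of all genes) with a median of 0.32, such as the VEGF receptor gene Kdr at 9.84 and 9.53 with PBS and 10.30, 10.33 and 10.02 with AzaC. Their summed signal was 12.78 and 12.56 with PBS and 12.83 to 13.21 with AzaC, and Erg was at 0 on all 15 arrays.

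Of 17 neutrophil genes, 4 lay below and 1 above (23.5% and 5.88%, against 6.80% and 11.5% of all genes): the collagenase gene Mmp8 read 3.87 and 4.11 with PBS and 2.76, 1.99 and 2.47 with AzaC, while S100a9 read 4.24 and 3.65 with PBS and 4.65, 4.69 and 5.30 with AzaC. These are dim readings: at most 5 of the 17 read 6 or more on any of the 5 arrays. The lower members Mmp8, Fpr2, Clec4d and Il1b averaged 3.285 to 5.414 over the 15 arrays. The brightest member, Ltf, is counted among the milk genes too. No macrophage (26), lymphocyte (21) or skeletal muscle (18) gene was non-overlapping. The summed skeletal muscle signal, as log2, was 16.31 and 15.38 with PBS and 14.40, 15.68 and 16.61 with AzaC, so AzaC replicates 1 and 3 were the extremes of the 5 arrays, and its list median went from -0.27 to 0.28 without AzaC replicate 1. The part of these cell types in the differences of other genes was not tested.

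Histone deacetylase and acetyltransferase genes had 6 of 20 above and 1 below without overlap (30% and 5%, against 11.5% and 6.80% of all genes), with a median of 0.26 that stayed between 0.18 and 0.36 with 1 array left out. The acetyltransferase gene Kat2b read 9.84 and 9.29 with PBS and 9.93, 10.18 and 10.29 with AzaC, and Kat7 read 9.30 and 9.06 with PBS and 9.56, 9.48 and 9.84 with AzaC. Of 34 cytosolic ribosomal protein genes, 10 lay above and 0 below (29.4% above, against 11.5% of all genes), with a median of 0.15, which was 0.40 without PBS replicate 2 and -0.04 without PBS replicate 1. Oxidative phosphorylation showed the same dependence: the median of 50 genes was 0.03, but 0.30 without PBS replicate 2, with 41 genes above and 1 below (82% and 2% against 30.6% and 17.5% of all genes). Without PBS replicate 1 it was -0.22, with 7 above and 34 below (14% and 68% against 30.3% and 28.6% of all genes). These 2 lists thus reversed with the PBS array used, as did the unfolded protein response, whose median of 0.04 over 30 genes became 0.14 without PBS replicate 2 and -0.02 without PBS replicate 1. After quantile normalization the medians of the respiratory and unfolded protein lists were -0.12 and -0.11.

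The same drug under the pregnant label shares no array with this comparison. There, 466 genes rose (3.76%) and 472 fell (3.81%) with limma at an adjusted p under 0.05. Of the 466, 91.2% had a virgin-labelled difference above 0, against 57.6% of all genes, with a median of 0.39 against 1.30 under the pregnant label, and 108 (23.2%) were non-overlapping upward. Their median levels were 8.17 and 7.83 with PBS and 8.01, 8.67 and 8.73 with AzaC, so AzaC replicate 1 lay between the PBS arrays and replicates 2 and 3 above both. Without AzaC replicate 1, 79.4% were non-overlapping upward, against 29.4% of all genes in that setting; without PBS replicate 2 it was 28.3% against 30.6%. The 472 genes that fell did not follow with the values as deposited. Of them, 50.2% had a virgin-labelled difference below 0, against 42.0% of all genes. Non-overlapping downward were 33 (6.99%), near the 6.80% of all genes. After quantile normalization, where the median over all genes was -0.03, 71.8% of the 472 were below 0. In that setting 9.75% of them were non-overlapping downward and 2.54% upward. The direction turned with the PBS array left out: without PBS replicate 1, 73.7% were below 0 and 49.2% non-overlapping downward (28.6% of all genes), whereas without PBS replicate 2, 77.1% were above 0, 51.1% non-overlapping upward (30.6% of all genes) and 9.32% downward (17.5%). Across genes with a mean of at least 6 the differences under the 2 labels had a Pearson correlation of 0.4005, which was 0.566 without AzaC replicate 1, 0.4997 without PBS replicate 1 and 0.0105 without PBS replicate 2.

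The difference between the labels was tested for each gene as an interaction. No gene passed (0 of 12393, 0% called, with 1587 or 12.8% at an unadjusted p under 0.05), and 49 passed with values under 5 set to 5. The smallest p belonged to Slc2a1, the glucose transporter that supplies lactose synthesis: it read 11.13 and 11.26 with PBS and 11.41, 11.34 and 11.48 with AzaC under the virgin label, and 11.43 and 11.41 with PBS and 10.31, 10.44 and 10.27 with AzaC under the pregnant label (difference of differences 1.29 ± 0.18 SE, adjusted p = 0.124, limma). Bhlha15, a transcription factor of secretory cells, differed by -0.04 under the virgin and -2.37 under the pregnant label (interaction adjusted p = 0.124). Socs3 was higher with AzaC under both labels, by 1.71 and 3.62, with an interaction of -1.91 (adjusted p = 0.137). The smallest p in the other direction included Vegfd, a lymphatic growth factor gene, at -0.64 and 0.58, and Rgs14, a regulator of G protein signalling, at -0.18 and 1.40, both with an interaction adjusted p of 0.124.

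Because AzaC inhibits methylation at CG dinucleotides, the CG content of promoter windows was described for the genes at both ends. The windows of the clock activator Npas2 (chr1:39194022-39194321, plus strand, GRCm38.p6), with 37 CG, and the salivary gene Bpifa2 (chr2:154008026-154008325, plus strand), with 2, show the range, with each CG in capitals.
Npas2: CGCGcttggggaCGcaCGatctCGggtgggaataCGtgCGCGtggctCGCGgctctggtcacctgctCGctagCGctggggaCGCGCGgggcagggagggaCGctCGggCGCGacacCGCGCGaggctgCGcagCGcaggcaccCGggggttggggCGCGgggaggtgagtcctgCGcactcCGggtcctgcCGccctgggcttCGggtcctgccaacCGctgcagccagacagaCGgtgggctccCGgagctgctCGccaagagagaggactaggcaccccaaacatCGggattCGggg
Bpifa2: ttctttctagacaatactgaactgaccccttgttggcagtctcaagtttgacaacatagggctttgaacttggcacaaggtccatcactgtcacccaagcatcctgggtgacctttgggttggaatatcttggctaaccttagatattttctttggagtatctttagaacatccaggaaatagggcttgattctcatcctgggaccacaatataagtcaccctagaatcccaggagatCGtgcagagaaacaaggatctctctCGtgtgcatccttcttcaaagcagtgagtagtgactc
Of the 12 largest differences in each direction, 11 genes higher and 10 lower had windows, with a median of 22 and 4 CG. The low median came from the salivary genes Bpifa2, Dnase1, Amy1, Cst10 and Chia1 and from Car6, with 1 to 4 CG each. The other lower genes with windows, Dbp, Olfml2b, Blm and Per3, had 18 to 41. The salivary transcripts read highest on PBS replicate 1. Over all genes with a mean of at least 6, an unadjusted p under 0.05 and no overlap, the median was 24 for the 329 higher (274 with windows) and 14.5 for the 106 lower (90 with windows). All 9887 matched genes had a median of 19, and those with a mean of at least 6 had 22. At least 10 CG were in 87.6% of the higher, 61.1% of the lower and 84.4% of the windows of genes with a mean of at least 6. Methylation itself was not measured in these samples.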

How the data were processed

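The values are processed log2 signals of 22690 probe sets as deposited by the authors, on 15 arrays; the log2 scale was inferred from their range (0 to 14.48), and the base of the logarithm and the summary, background and normalization methods are not given in the sources used here. Probe sets were named from the platform annotation: 20380 had a single symbol, 691 several and 1619 none, and 12393 genes were kept without a filter on dim genes. A mean for each of 6 groups was fitted to all 15 arrays with limma 3.58.1 (lmFit, eBayes) in R 4.3.3, two-sided, with Benjamini-Hochberg adjustment over all genes, a threshold of 0.05, and 9 residual and 2.31 prior degrees of freedom. The number of arrays limits the precision.

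Genes were named by rule: any past the threshold; the 12 largest non-overlapping differences per direction with a mean of at least 6 and an unadjusted p under 0.05; up to 4 per list by smallest p, for 29 lists; 19 fixed genes; the 6 smallest interaction p per direction; and up to 8 called with 1 array left out. Not all of these are described, and other genes shown in a list were chosen after their values were seen. Members and lists were chosen with earlier results of these data known. Deviations of same-numbered arrays correlated at -0.393 to 0.613 over 33 pairs, of which 14 were over 0.1. Between groups of 2 arrays, replicates 1 and 2 give the same value, so the 33 pairs are not all independent. The replicate numbers were not used as pairs in the main fit. The labels do not say whether same-numbered arrays were handled together, and this was not tested. Promoter windows of 9887 genes came from RefSeq (GRCm38.p6), matched by symbol. The element TTATGTAA or TTATGCAA and the salivary list were added after the data were seen. The fit was tested on simulated data. Figures were drawn with matplotlib 3.10.9.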

Additional observations from a re-analysis of the deposited data

Results flagged for a closer look

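In Arntl all AzaC arrays lay above PBS under the virgin label and below it under the pregnant label, with a difference between the labels of 1.44 (interaction adjusted p = 0.124, limma). Gjb6 had the same pattern, with 1.53 (adjusted p = 0.157). Amy1 had the opposite one, with -5.31 (adjusted p = 0.270); its pregnant-labelled values were 6.48 and 5.19 with PBS and 7.48, 7.20 and 7.23 with AzaC. These differences were tested and did not pass.

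Outside the 12393 genes, 1 probe set without a single symbol, left unnamed here, read 3.30 and 2.98 with PBS and 4.85, 5.44 and 4.92 with AzaC under the virgin label, a difference of 1.93 ± 0.22 (SE; adjusted p = 0.0463 over all probe sets, limma). The VPA arrays of that label read 4.95 and 5.18, and the PBS arrays labelled pregnant 5.29 and 5.09, so the virgin-labelled PBS arrays were again the low ones.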

How the results depend on the processing

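The 0 genes past the threshold with all 5 arrays (849 with an unadjusted p under 0.05) stayed 0 under quantile normalization, a minimum mean of 6, the mean of all probe sets, trend and robust settings, and fits of fewer arrays; 4 genes passed with values under 5 set to 5. With 1 array left out the count lay between 0 and 33: 33 without virgin PBS replicate 1, 5 without virgin PBS replicate 2, 1 without virgin AzaC replicate 2 and 0 without virgin AzaC replicate 1 or 3. Where a PBS array is left out, the lone one is assumed to vary like the other groups. The label interaction (0 genes) became 49 with values under 5 set to 5, 1 with the 10 PBS and AzaC arrays only, and 0 to 15 with 1 array left out. Non-overlapping genes higher with AzaC numbered 1774 to 3796 and lower ones 1174 to 3541 with 1 array left out, where fewer arrays must be ordered; with a minimum mean of 6 the lower ones were 425, of fewer genes. Of 31 genes followed under up to 13 settings, 29 kept their sign. Xist became -0.0094 with the mean of all probe sets, and Dnmt1 ranged from -0.34 without virgin PBS replicate 1 to 0.10 without virgin PBS replicate 2; the cause was not tested. Cst10 (-6.08, adjusted p = 0.0475) and Chia1 (-5.71, adjusted p = 0.0189) passed only without virgin PBS replicate 2.

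With the replicate number as a block, 0 genes passed (766 with an unadjusted p under 0.05). Deviations of same-numbered virgin-labelled AzaC and PBS arrays correlated at -0.29 and -0.332, and those of all same-numbered arrays at -0.393 to 0.613. The numbers were not used as pairs in the main fit because nothing in the labels says that they pair arrays.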

Other observations

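Glycolysis and hypoxia genes, which had no comparison of their own above, overlapped for the most part: of 26 measured, 3 lay above and 1 below PBS (11.5% and 3.85%, against 11.5% and 6.80% of all genes), with a median of 0.03. Car9, a hypoxia-induced carbonic anhydrase, read 7.94 and 8.21 with PBS and 7.65, 7.47 and 7.31 with AzaC. Ndrg1, a stress and hypoxia gene, read 12.77 and 11.92 with PBS and 12.64, 13.34 and 13.32 with AzaC. Among adipocyte genes, Retn (resistin) read 10.78 and 10.88 with PBS and 10.40, 10.31 and 10.07 with AzaC, and Apoc1, an apolipoprotein, read 7.62 and 8.11 with PBS and 8.58, 8.85 and 8.53 with AzaC, so the list was split.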
